A study of Mus musculus with 36 samples.

Results

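The cytosolic ribosomal proteins are the proteins of the small and large subunits of the ribosome that translates nuclear mRNAs. Their genes were taken as every probe whose symbol begins with Rps, Rpl or Rplp followed by a number and at most one of the letters a, x or l, which gave 84 of the 23982 probes measured. These 84 probes stood for 68 genes: 27 probes of the small subunit, 53 of the large subunit and 4 of the acidic stalk proteins Rplp0, Rplp1 and Rplp2. Probes with no symbol could not be considered, and 4638 probes had none.

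Spleens and livers of male BALB/c mice were profiled on 36 Illumina BeadChip arrays, 18 per tissue, in 12 groups of 3 arrays. All mice had been inoculated subcutaneously at the dorsal neck with J558 cells, a mouse myeloma line, so every group, the water groups included, carried the tumour cells. The mice had chow and their drink without restriction. The drink was distilled water in the control groups and oil palm phenolics, a water-soluble polyphenol extract called OPP here, at 1500 ppm gallic acid equivalents in the others. Each tissue and drink was sampled at times given as 18 hours, 1 week and 4 weeks, at ages of 6, 7 and 10 weeks. The series design counts these times from the inoculation, but the treatment text of every sample names 4 weeks, so the start of the clock is not settled. Nothing states whether an array held RNA of 1 mouse or of a pool, and the p-values measure only the spread between these arrays. Time, age and any processing batch cannot be told apart in the comparisons between times.

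Ribosomal protein genes are transcribed in all cells and their mRNAs are among the most abundant in a cell. Many of these mRNAs begin with an uninterrupted stretch of C and T, the terminal oligopyrimidine or TOP motif, through which the kinase mTORC1 and the protein LARP1 adjust their translation together. Because the subunits are assembled from single copies of nearly all of these proteins, the genes are usually expressed in step. Some members have known tissue-restricted copies, such as Rpl3l, the striated muscle counterpart of Rpl3, and Rpl39l, the testis counterpart of Rpl39.

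The sequence at the transcription start is shown for members with large differences described below, since a TOP motif, where there is one, begins there. Each line gives 15 bases before and 15 bases from the annotated start onward, from RefSeq on build GRCm38.p6. It reads on the strand of the gene and in the direction of transcription, with the longest uninterrupted run of C and T in capitals. That run is marked wherever it lies in the window and need not be a TOP motif. Among members with an annotated start, the first group had the largest rises in spleen and the second the largest falls in liver. The third, from Rpl22 on, had the only rises called in liver. Rpl30, which had the largest fall in liver, and Rpl23a had no start in the annotation used and are not shown.
Rpl13a, chr7:45128731-45128760, minus strand: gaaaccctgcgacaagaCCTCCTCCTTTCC
Rpl7a, chr2:26910792-26910821, plus strand: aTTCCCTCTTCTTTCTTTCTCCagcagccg
Rps9, chr7:3704026-3704055, plus strand: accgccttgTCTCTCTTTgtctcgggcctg
Rps3, chr7:99483695-99483724, minus strand: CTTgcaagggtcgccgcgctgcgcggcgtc
Rpl27a, chr7:109519180-109519209, plus strand: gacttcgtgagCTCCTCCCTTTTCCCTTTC
Rpl12, chr2:32961697-32961726, plus strand: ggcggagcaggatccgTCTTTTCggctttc
Rps6, chr4:86857353-86857382, minus strand: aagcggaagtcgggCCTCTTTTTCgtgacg
Rpl31, chr1:39367836-39367865, plus strand: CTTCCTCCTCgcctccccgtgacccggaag
Rpl22, chr4:152324421-152324450, plus strand: cgctgCTTCTggaatgttccagctcccact
Rpl22, other start, chr4:152325711-152325740, plus strand: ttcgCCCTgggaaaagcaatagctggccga
Rpl23, chr11:97782425-97782454, minus strand: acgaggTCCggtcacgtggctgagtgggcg
Rps2, chr17:24720048-24720077, plus strand: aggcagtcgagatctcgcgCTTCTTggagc

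A start was found for 54 of the 68 genes, with 65 starts in all. A run of at least 8 pyrimidines lay in 36.9% of these windows against 12% of the 32851 windows of all 27025 genes with a start. The letters CTTTC occurred in 24.6% of the members' windows on the strand of the gene and in 3.08% on the other strand, against 4.05% and 3.6% over all windows. Among members that fell in liver by 4 weeks, 45% of 20 windows had such a run, and among the other members 33.3% of 45 did. The windows of Rpl22, Rpl23 and Rps2 had runs of at most 6 bases, but the median longest run over all the members' windows was also 6. The window of Rps3, among the largest rises in spleen, had a longest run of 3. These are descriptions of letters in a window, and an annotated start may lie some bases from the one used in these tissues.

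All values are ratios to the median of the same probe over the 18 arrays of its tissue, given here as log2, so that they compare arrays for 1 probe and say nothing of which gene was more abundant. Differences were called at an adjusted p under 0.05 from limma, adjusted with the Benjamini-Hochberg method over all 23982 probes. Some arrays stood apart in genes of other tissues. In spleen these were 4 arrays. The median of 9 hepatocyte probes (8 genes) was 1.82 and 1.38 on the second and the third water arrays at 18 hours and 1.59 on the first OPP array at 1 week, and the median of 7 pancreatic acinar probes was -2.37 on that OPP array and -6.64 on the second water array at 1 week. The last stands for a ratio of 0.01, the lowest in the data, so it gives no exact size. Both low acinar values mean less acinar signal than on the median spleen array. In liver the median of 12 skeletal muscle probes was between 2.24 and 5.85 on 4 arrays, and another array, the first with OPP at 4 weeks, had an acinar median of 4.90. Counts without the first 4 arrays in spleen, or the 4 with muscle genes in liver, are given below where they change a call. Leaving these out left 1 water array at 18 hours in spleen and 1 OPP array at 18 hours in liver. Such fits are less precise, and a lost call there is not by itself a sign of a smaller difference.

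In spleen, nearly the whole set was higher at 4 weeks. Of the 84 probes, 77 (63 genes) were higher at 4 weeks than at 18 hours and 0 were lower, while the shares over the whole array were 36.0% for rises and 2.78% for falls. The members' median difference was 0.49 on the log2 scale, and that of all probes was 0.12, so the set lay 0.37 above the bulk of the array. The 6 arrays at 4 weeks lay wholly above the 6 arrays at 18 hours for 60 members, as they did for 21.7% of all probes, and wholly below them for 0 members, against 0.713%. In bulk tissue, more cells of a type and more RNA per cell cannot be told apart.

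**Figure D1:**
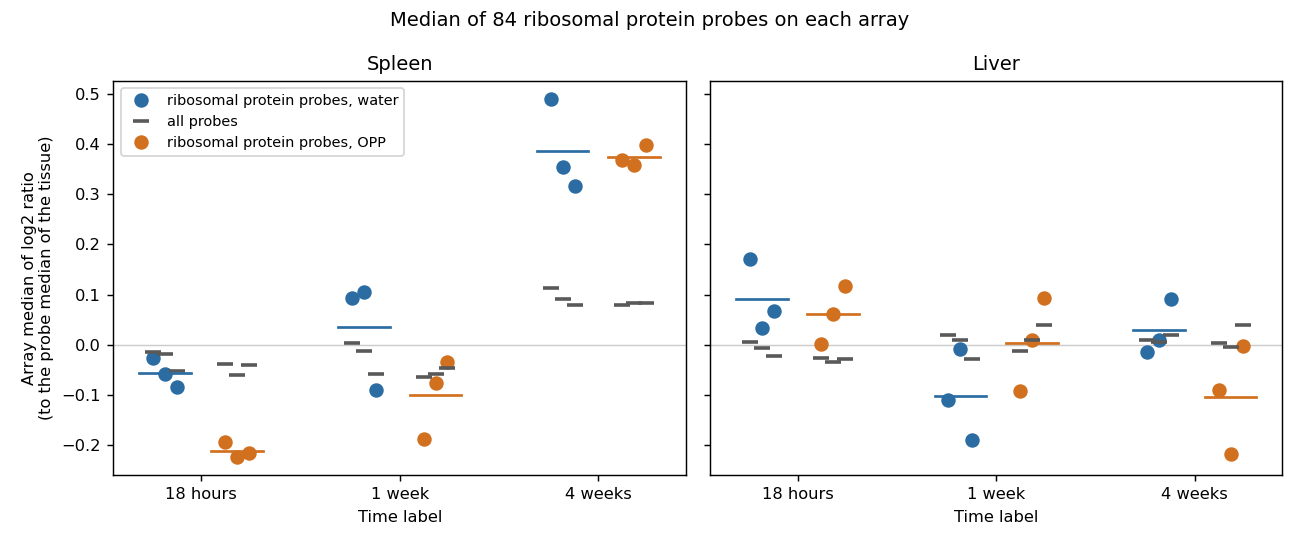
Median log2 ratio of the 84 ribosomal protein probes on each array (points; 3 arrays per group; short lines are group means) and of all probes (grey dashes), by tissue, time label and drink. In spleen the members' medians at 4 weeks lie between 0.32 and 0.49, above those at 18 hours (-0.22 to -0.03) and 1 week (-0.19 to 0.10), and in liver those of all 3 times overlap.

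The largest rise was that of Rpl13a, a large subunit protein known also for its part in silencing inflammatory transcripts in myeloid cells. One of its 2 probes had a lowest, median and highest log2 ratio of -0.62, -0.51 and -0.35 on the 6 arrays at 18 hours and of 0.26, 0.59 and 0.92 at 4 weeks. The ranges did not overlap, and the OPP arrays were the highest at 4 weeks, with 0.76, 0.69 and 0.92 against 0.49, 0.35 and 0.26 in the water group. The difference between times was 1.07 (SE 0.088, n = 6 and 6, limma adjusted p = 2.4e-07), and the other Rpl13a probe gave 0.87 (SE 0.082).

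Among the small subunit, 26 of 27 probes rose, with a median difference of 0.55. Rps3, which lines the mRNA entry channel, ran from -0.70 to -0.09 at 18 hours and from 0.39 to 0.77 at 4 weeks. Its difference was 0.87 (SE 0.14). Rps9, which lies with Rps3 at the mRNA entry channel, ran from -0.42 to -0.09 at 18 hours and from 0.57 to 0.76 at 4 weeks on the probe with the largest change, a difference of 0.87 (SE 0.076). On these probes every array at 4 weeks was above every array at 18 hours, whereas the ranges of another Rps9 probe overlapped, -0.33 to 0.22 and -0.15 to 0.61. Rps6, the substrate of the S6 kinases downstream of mTORC1, had a smaller rise of 0.37 (SE 0.079, limma adjusted p = 0.000853). Its 3 water arrays at 4 weeks read 0.64, 0.50 and 0.56 and its 3 OPP arrays 0.42, -0.07 and 0.05, so the 4 weeks range reached down into that at 18 hours, -0.16 to 0.19.

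Among the large subunit, 48 of 53 probes rose, with a median difference of 0.47. Rpl23a, at the exit of the peptide tunnel where the signal recognition particle docks, lay between -0.45 and -0.08 at 18 hours and between 0.56 and 0.70 at 4 weeks. It rose by 0.85 (SE 0.072). Rpl7a lay between -0.50 and -0.05 at 18 hours and between 0.48 and 0.79 at 4 weeks, and rose by 0.85 (SE 0.09). Neither gene's groups overlapped. Rpl22, which also binds RNA outside the ribosome and is needed for the development of T cells in mice, rose by 0.35 (SE 0.072).

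Of the 4 stalk probes, which stand for the proteins that recruit elongation factors, 3 rose. Rplp1 rose by 0.49 (SE 0.06) and the 2 Rplp0 probes by 0.55 (SE 0.086) and 0.35 (SE 0.10). The smaller Rplp0 change was not called when each array was centred on its median (0.22, limma adjusted p = 0.0899) or after quantile normalisation (0.17, limma adjusted p = 0.186), nor without the 4 arrays apart in hepatocyte or acinar genes (0.35, limma adjusted p = 0.0547). Rplp2 differed by 0.11 (SE 0.065, limma adjusted p = 0.197).

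The 7 probes that were not called were those of Rps19, Rplp2, Rpl29, Rpl39l and Rpl3l, and 1 probe each of Rpl38 and Rpl37. Their differences ran from -0.08 to 0.19. Rpl29 was the least variable member in both tissues, with an SD over 18 arrays of 0.11 in spleen and 0.087 in liver. Both tissue-restricted copies were in this group while their parents rose. Rpl39l differed by -0.06 (SE 0.071) and Rpl39 rose by 0.59 (SE 0.064), and Rpl3l differed by -0.06 (SE 0.075) and Rpl3 rose by 0.50 (SE 0.065). The third copy, Rps27l, a target of p53 in mammals, rose by 0.67 (SE 0.075), as its parent Rps27 did by 0.53 (SE 0.062). Rpl10, which joins the large subunit late in its assembly, rose by 0.47 (SE 0.066).

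The rise lay between 1 week and 4 weeks for most members. Against 1 week, 76 probes (64 genes) were higher at 4 weeks and 0 lower, where 45.7% of all probes were called, with 41.6% higher and 4.03% lower. The members' median difference was 0.43 and that of all probes 0.16, and groups did not overlap for 53 members against 19.5% of all probes. The largest differences were those of Rpl7a (0.69, SE 0.09), one Rps9 probe (0.66, SE 0.076), one Rpl13a probe (0.66, SE 0.088), one Rpl38 probe (0.65, SE 0.1), Rpl23a (0.62, SE 0.072) and one Rps3 probe (0.61, SE 0.14). All 4 stalk probes rose, Rplp1 by 0.34 (SE 0.06), the Rplp0 probes by 0.59 (SE 0.10) and 0.30 (SE 0.086) and Rplp2 by 0.24 (SE 0.065). Quantile normalisation ended the calls of Rplp1 (0.15, limma adjusted p = 0.0632), the less changed Rplp0 probe (0.05, limma adjusted p = 0.656) and Rplp2 (0.09, limma adjusted p = 0.295). Centring each array on its median ended those of that Rplp0 probe (0.17, limma adjusted p = 0.101) and Rplp2 (0.11, limma adjusted p = 0.176). Rpl39l rose by 0.33 over this interval (SE 0.071, limma adjusted p = 0.000848), although its call was lost after quantile normalisation (0.23, limma adjusted p = 0.0613). Rps6 rose by 0.38 (SE 0.079), a call also lost after quantile normalisation (0.18, limma adjusted p = 0.0700).

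Between 18 hours and 1 week, 5 probes rose and 2 fell, where 7.92% of all probes were called, with 3.75% higher and 4.17% lower. The rises were those of both Rpl13a probes (0.41, SE 0.088, and 0.38, SE 0.082), one Rps9 probe (0.29, SE 0.068), one Rpl37 probe (0.27) and Rpl8 (0.26), a core protein near the peptidyl transferase centre. Rpl39l fell by 0.39 (SE 0.071, limma adjusted p = 0.00257), from between -0.08 and 0.41 at 18 hours to between -0.41 and -0.11 at 1 week. Another Rpl37 probe fell by 0.29 (SE 0.083, limma adjusted p = 0.0386), opposite to the first. These 2 probes had all arrays at 1 week below all arrays at 18 hours, as 0.796% of all probes did. Without the 4 arrays apart in hepatocyte or acinar genes both calls were lost, in a fit with 1 water array left at 18 hours. The differences were then -0.42 for Rpl39l and -0.40 for Rpl37, no smaller than with all arrays. Leaving out single arrays, Rpl39l was called in 18 of 18 fits and this Rpl37 probe in 12. The count depended on single arrays: it was 26 without the third water array at 1 week, on which Rps3 read -0.86 and Rpl30 -0.63. That array had medians of -0.78 for erythroid, -0.79 for cell cycle and -0.79 for neutrophil probes, below all other spleen arrays at 1 week. Its B cell and T cell medians, -0.08 and 0.06, lay within the range of the others.

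**Figure D2:**
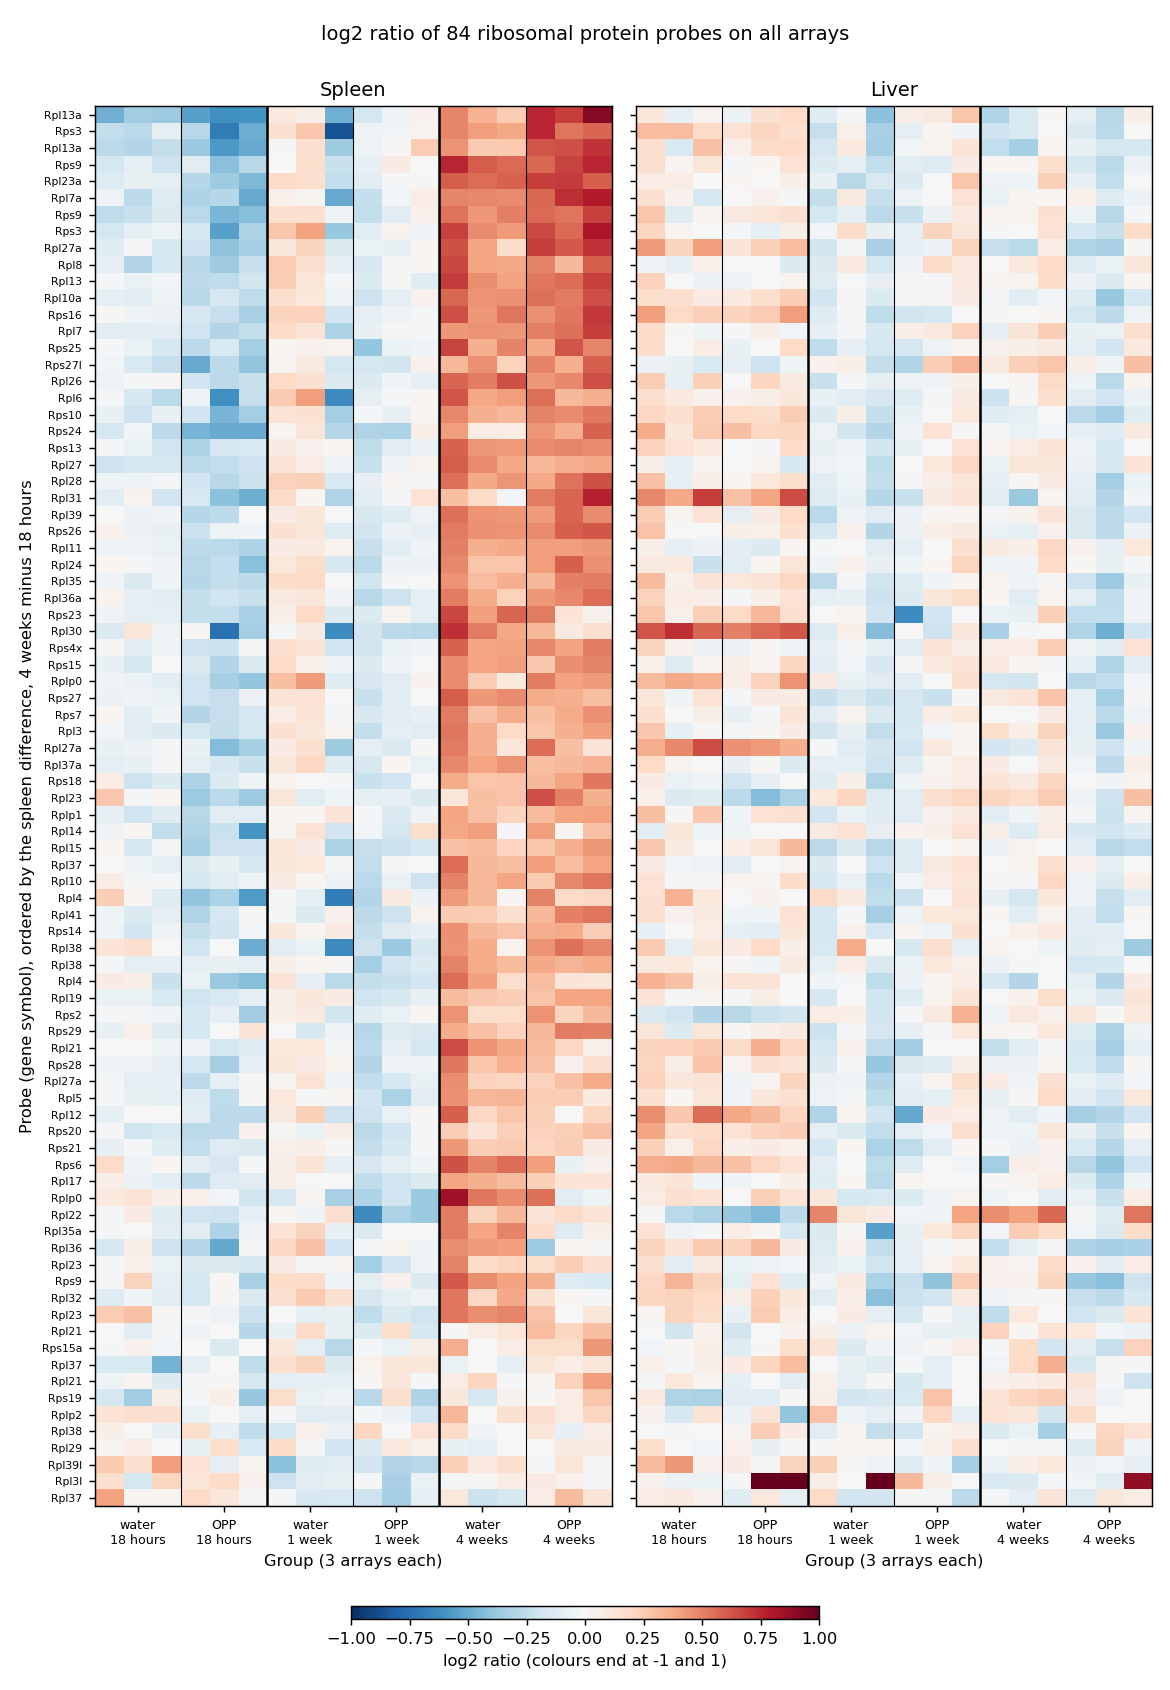
log2 ratio of each of the 84 probes (rows, ordered by the spleen difference between 4 weeks and 18 hours) on the 36 arrays (columns, 3 per group); red is above and blue below the probe's median in that tissue, and colours end at -1 and 1. The 4 weeks columns of spleen are red for nearly all rows, and in liver the 18 hours columns of Rpl30, Rpl31, Rpl27a and Rpl12 stand out in red.

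Array-wide shifts changed the size of the spleen difference. The counts that follow are of members only, without the share of all probes called under each setting. Centring each array on its median took the members' median at 4 weeks against 18 hours from 0.49 to 0.36, with 69 probes higher and 1 lower, and quantile normalisation took it to 0.28, with 64 higher and 2 lower. Against 1 week the medians became 0.30 and 0.21, with 65 and 53 probes higher and 1 lower in each. Without the 4 spleen arrays apart in hepatocyte or acinar genes, 72 probes were higher in each comparison and 0 lower. The rise of Rps6 at 4 weeks against 18 hours was not called after quantile normalisation (0.17, limma adjusted p = 0.0932).

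Other genes of the translation machinery, in lists chosen with earlier results known, were counted in the same comparison, against the array-wide 36.0% higher and 2.78% lower and the all-probe median of 0.12. Of 97 probes of the mitochondrial ribosomal proteins, 82 were higher at 4 weeks than at 18 hours and 1 lower, with a median of 0.48. Of 67 ribosome biogenesis probes 47 were higher and 1 lower (median 0.33), and of 28 probes of translation factors and other TOP mRNAs 24 were higher and 0 lower (median 0.59). Of 18 probes for the control of TOP translation and Myc, 8 were higher and 0 lower (median 0.18). The 6 probes of 4 ribosomal protein genes named outside the pattern had a median of 0.29 and 3 were higher, those of Fau, Rpl22l1 and one Rpl7l1 probe. Both Rpsa probes were not called, with differences of 0.08 and -0.09 (limma adjusted p = 0.509 and 0.479). The shares of the last 2 lists were nearer to that of all probes than those of the other 3.

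Cell type markers were read over the same times, again with 36.0% of all probes higher and 2.78% lower. The array medians of 9 erythroid probes lay between -1.23 and -0.40 at 18 hours and between 0.20 and 0.50 at 4 weeks, and 8 of the 9 were called higher. The medians of 19 cell cycle probes lay between -0.93 and -0.43 and between 0.09 and 0.49, with 17 higher. Among 12 B cell probes 8 were higher, with medians from -0.27 to -0.01 and from 0.18 to 0.50, and among 9 T cell probes 7 were higher, with medians from -0.40 to 0.02 and from 0.07 to 0.35. Of 8 plasma cell probes 4 were higher (medians -0.14 to 0.06 and 0.01 to 0.34), and of 13 neutrophil probes 8 were lower, with medians from -0.05 to 0.31 and from -0.77 to -0.02. At 4 weeks some of these medians separated by drink. B cell medians ran from 0.43 to 0.50 with water and from 0.18 to 0.25 with OPP. In the same order, T cell medians ran from 0.18 to 0.35 and from 0.07 to 0.08. Those of plasma cells ran from 0.24 to 0.34 and from 0.01 to 0.17. Cell cycle medians ran from 0.09 to 0.26 and from 0.40 to 0.49. Erythroid medians ran from 0.20 to 0.28 and from 0.30 to 0.50, and those of neutrophils overlapped. The part of these cells in the ribosomal protein differences was not tested.

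In liver a subset of members fell after 18 hours and 3 rose. At 1 week 25 probes (24 genes) were lower than at 18 hours and 3 higher, where 4.33% of all probes were lower and 15.8% higher. At 4 weeks 23 probes (22 genes) were lower and 3 higher, where 5.13% were lower and 15.8% higher. The members' median differences were -0.13 and -0.11, and those of all probes were 0.02 and 0.03. These comparisons share the arrays at 18 hours, and 21 probes were lower in both, 84% of those at 1 week and 91.3% of those at 4 weeks. Between 1 week and 4 weeks limma called 0 members (3 at an unadjusted p under 0.05), where 0.0125% of all probes were called. The unadjusted p was under 0.05 for 8.90% of all probes.

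The largest fall was that of Rpl30, a large subunit protein at the bridge between the subunits. Its log2 ratio was 0.63, 0.74 and 0.58 on the water arrays at 18 hours and 0.50, 0.56 and 0.62 on the OPP arrays. At 1 week the lowest, median and highest of the 6 arrays were -0.43, -0.06 and 0.11, and at 4 weeks the lowest and median were -0.49 and -0.25 and all 6 were below 0. All arrays at 18 hours lay above all later ones. The differences were -0.71 (SE 0.086, limma adjusted p = 1.04e-05) at 1 week and -0.83 (limma adjusted p = 1.45e-06) at 4 weeks.

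Rpl31, which lies at the rim of the peptide tunnel exit, read 0.29, 0.44 and 0.69 as lowest, median and highest at 18 hours, then -0.28, -0.10 and 0.13 at 1 week and -0.37, -0.11 and 0.02 at 4 weeks. It fell by 0.57 and by 0.63 (SE 0.089 for both). Rpl27a lay between 0.36 and 0.65 at 18 hours and between -0.20 and 0.13 at 4 weeks on its most changed probe, which fell by 0.52 and by 0.54 (SE 0.07). A second Rpl27a probe fell by 0.36 and by 0.46 (SE 0.084), and the third of its probes was not called. Rpl12, part of the base of the stalk, lay between 0.21 and 0.56 at 18 hours and between -0.33 and -0.04 at 4 weeks, and fell by 0.50 and by 0.54 (SE 0.092). For these 3 genes, as for Rpl30, the arrays at 18 hours did not overlap those of either later time on the probe described.

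**Figure D3:**
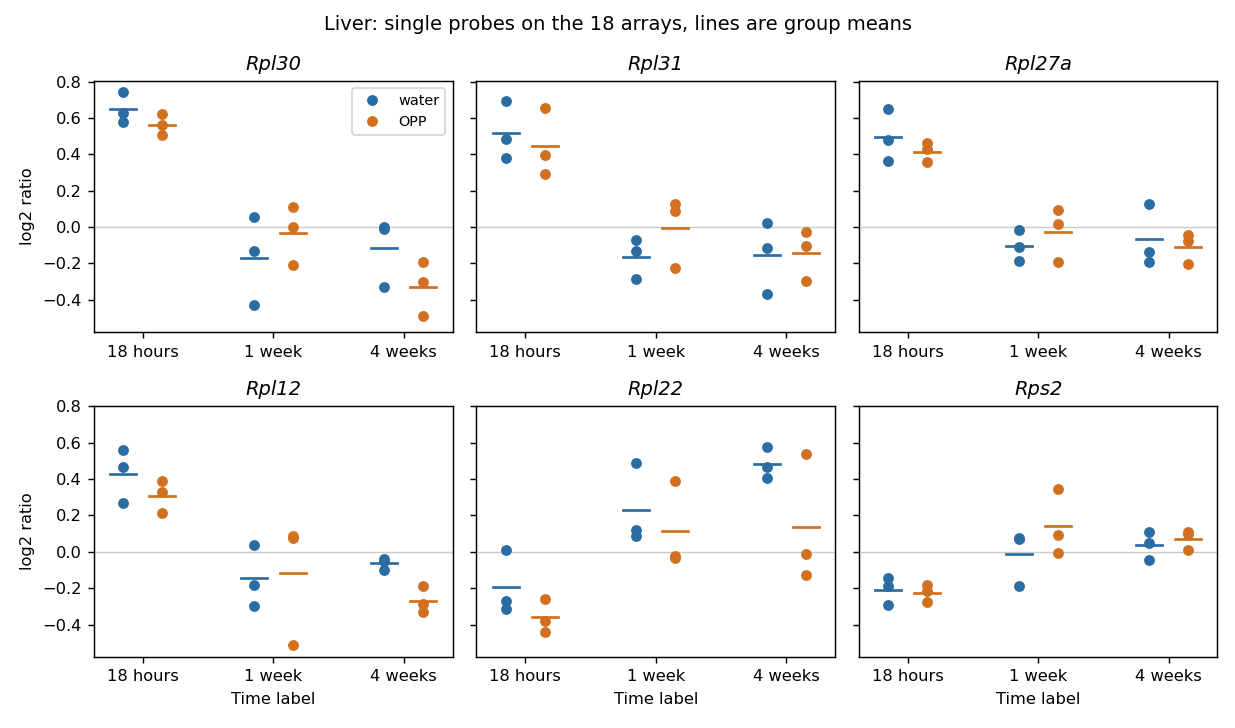
log2 ratio (y axis) of 6 ribosomal protein probes on the 18 liver arrays by time label and drink; points are arrays and lines are means of 3. Rpl30, Rpl31, Rpl27a and Rpl12 are highest on the 6 arrays at 18 hours, and Rpl22 and Rps2 are mostly lower there than at the later times.

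Of the small subunit probes 11 were lower at 1 week and 9 at 4 weeks, with 1 higher at each time. Rps6 read 0.37, 0.38 and 0.32 on the water arrays and 0.29, 0.21 and 0.14 on the OPP arrays at 18 hours, and lay between -0.25 and 0.00 at 1 week and between -0.40 and 0.07 at 4 weeks. It fell by 0.37 and by 0.47 (SE 0.071), with no overlap between 18 hours and either time. Rps16, whose tail contacts the tRNA in the P site, fell by 0.42 and by 0.37 (SE 0.062). Rps23, at the decoding centre, fell by 0.37 at 1 week (SE 0.093) and by 0.28 at 4 weeks.

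Of the large subunit probes 12 were lower at 1 week and 13 at 4 weeks, with 2 higher at each time. Of the stalk probes, one for Rplp0 fell at both times, by 0.31 and by 0.45 (SE 0.072), and the other differed by -0.19 at each (limma adjusted p = 0.0524 and 0.0523). Rplp1 fell by 0.20 at 1 week (limma adjusted p = 0.0417) and differed by -0.19 at 4 weeks (limma adjusted p = 0.0517). Rplp2 differed by 0.09 and 0.10 (limma adjusted p = 0.623 and 0.583). Rps27 fell at 1 week (by 0.22) and differed by -0.05 at 4 weeks, and Rpl39l fell at 1 week (by 0.23) and differed by -0.19 at 4 weeks. With single arrays left out, the 1 week calls of Rplp1, Rps27 and Rpl39l held in 9, 14 and 11 of 18 fits. With only the groups compared in the fit, Rplp1 and Rpl39l were not called (limma adjusted p = 0.0540 and 0.0695). Nor was Rplp1 with array weights (limma adjusted p = 0.0553). Rpl3, Rpl10, Rpl39 and Rps27l were not called at either time.

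The 3 probes that rose in liver were those of Rpl22, Rps2 and Rpl23. Rpl22 read 0.01, -0.27 and -0.32 on the water arrays and -0.38, -0.44 and -0.26 on the OPP arrays at 18 hours, and its lowest, median and highest were -0.13, 0.43 and 0.57 at 4 weeks. The ranges overlapped through a water array at 18 hours and OPP arrays at 4 weeks. It rose by 0.45 at 1 week and by 0.58 at 4 weeks (SE 0.11, limma adjusted p = 0.00629 and 0.000674). Rps2, on the solvent side of the small subunit near the mRNA entrance, lay between -0.29 and -0.15 at 18 hours and between -0.04 and 0.11 at 4 weeks with no overlap, and rose by 0.28 and by 0.27 (SE 0.066). One of 3 probes of Rpl23, a protein that in mammals also binds Mdm2, rose by 0.28 and by 0.32 (SE 0.084). The other Rpl23 probes differed by -0.16 and -0.17, and by -0.05 and 0.05, so the rise rests on 1 probe.

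Rpl22l1, the close copy of Rpl22 whose mRNA the Rpl22 protein is known to repress in mice, has a name outside the rule and was looked at after its values were seen. In liver its log2 ratio was 1.12, 1.23 and 1.04 on the water arrays and 1.02, 1.09 and 1.01 on the OPP arrays at 18 hours, -0.11, 0.17 and -0.04 with water and 0.11, 0.02 and -0.02 with OPP at 1 week, and -0.16, -0.34 and -0.32 with water and -0.52, -0.65 and -0.28 with OPP at 4 weeks. All arrays at 18 hours were above all later ones. It fell by 1.06 at 1 week and by 1.46 at 4 weeks (SE 0.068, limma adjusted p = 8.08e-09 and 9.99e-11), further than any member, while Rpl22 rose. In spleen Rpl22l1 rose by 0.54 at 4 weeks against 18 hours (SE 0.073), as Rpl22 did by 0.35. Whether the changes of Rpl22 and Rpl22l1 are linked was not tested. Without the 4 liver arrays with high muscle genes the differences in liver were -1.04 and -1.50 for Rpl22l1, and 0.49 at both times for Rpl22.

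Without the 4 liver arrays with high muscle genes, 9 members were lower at 1 week and 3 higher, and at 4 weeks 17 were lower and 2 higher. Rpl30, Rpl31, Rpl27a, Rpl12 and Rps6 fell at both times without them, with differences from -0.38 to -0.83. The calls of Rps23, Rplp0, Rplp1, Rps27 and Rpl39l at 1 week were lost, with limma adjusted p-values from 0.0987 to 0.414 from fewer arrays. Their differences were then -0.32, -0.20, -0.13, -0.18 and -0.19, against -0.37, -0.31, -0.20, -0.22 and -0.23 with all arrays. Centring each array on its median gave 34 lower and 3 higher at 1 week and 33 lower and 3 higher at 4 weeks, and quantile normalisation gave 39 lower and 2 higher, and 35 lower and 3 higher. The cause of these shifts in number was not tested, and the shares of all probes called under these settings are not given here.

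Rises outnumbered falls in liver over the whole array, 15.8% against 4.33% at 1 week and 15.8% against 5.13% at 4 weeks, and genes of the same machinery outside the cytosolic ribosome are read against those shares. Of the 97 mitochondrial ribosomal protein probes 49 were higher at 1 week than at 18 hours and 3 lower (median 0.21), and 40 were higher and 4 lower at 4 weeks (median 0.17). Of the 67 ribosome biogenesis probes 25 were higher and 4 lower at 1 week, and 20 higher and 4 lower at 4 weeks. Of the 28 probes of translation factors and other TOP mRNAs 8 were higher and 6 lower at 1 week, and 11 higher and 7 lower at 4 weeks. Of the 18 probes for the control of TOP translation and Myc 5 were higher and 0 lower at 1 week, and 5 higher and 1 lower at 4 weeks. Of 9 hepatocyte marker probes 7 were higher at 4 weeks, with array medians of -0.23 to -0.02 at 18 hours and 0.05 to 0.21 at 4 weeks, and of 13 neutrophil probes 5 were lower. The part of these markers in the members' values was not tested.

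The change from 18 hours to 4 weeks was compared between the tissues in a single fit over the 36 arrays, a comparison added after the data had been seen. Of the 84 members 70 (59 genes) differed, all with the more positive change in spleen, where 21.5% of all probes did so and 4.98% had the more positive change in liver. The members' median difference between tissues was 0.63 on the log2 scale and that of all probes 0.09. It differed most for Rpl30 (1.39, SE 0.16), a Rpl13a probe (1.25, SE 0.12), Rpl31 (1.24, SE 0.13), one Rps3 probe (1.22, SE 0.16) and one Rpl27a probe (1.22, SE 0.12). Higher in spleen and lower in liver, each by its own call, were 23 member probes (22 genes), 27.4% of the members against 2.20% of all probes. Higher in both tissues were 3 members, Rpl22, Rps2 and one Rpl23 probe, 3.57% against 10.5% of all probes.

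Rpl22 was the member with the most negative difference between tissues, -0.24 (SE 0.13, limma adjusted p = 0.21), followed by one Rpl37 probe (-0.08) and Rps19 (-0.04), and none of these was called. Without the 4 spleen arrays apart in hepatocyte or acinar genes and the 4 liver arrays with high muscle genes, 66 members differed between tissues. All of these had the more positive change in spleen. The liver array with the acinar median of 4.90, the first with OPP at 4 weeks, was kept in that fit. After quantile normalisation 66 had the more positive change in spleen and 1 in liver, with a median of 0.46.

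**Figure D4:**
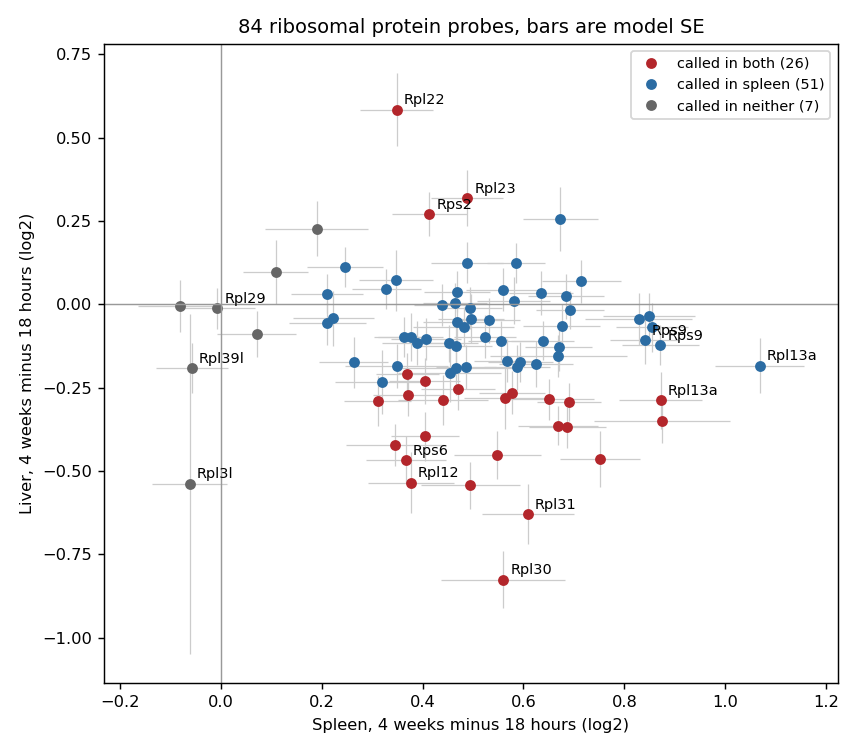
Difference between 4 weeks and 18 hours for each of the 84 probes in spleen (x axis) and liver (y axis), both log2, with the SE of each as bars and colours for where it was called. All 77 called spleen differences are above 0, and of the 26 probes called in both tissues 23 lie below 0 in liver and 3 above.

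The study's question was the effect of OPP against water, and no member was called at any single time in either tissue. Small changes would mostly be missed with 3 arrays a group. Of 50 probes given a simulated log2 change of 0.25 with OPP at 4 weeks, 0 were called in spleen and 3 in liver. For a change of 0.5 they were 29 and 36 of 50. In spleen limma called 0 members at 18 hours (13 at an unadjusted p under 0.05), where 0% of all probes were called. At 1 week it called 0 (19 unadjusted), where 0.00834% were called, and at 4 weeks 0 (19 unadjusted), where 0.334% were called (0.0334% higher and 0.300% lower). The unadjusted p was under 0.05 for 10.9%, 10.2% and 8.87% of all probes at the 3 times. The members' median differences of OPP minus water were -0.15, -0.14 and 0.02 at the 3 times, and those of all probes were -0.04, -0.03 and 0.01. Single arrays moved the later medians: at 1 week it was -0.21 without the third water array, and at 4 weeks -0.0090 without the third water array and 0.080 without the first. At 18 hours the OPP arrays lay below all water arrays for 39 members, as they did for 10.7% of all probes, and above them for 0 members against 5.36%. At 1 week they lay below for 22 members against 9.65% and above for 1 against 3.25%. At 4 weeks they lay above for 12 members (10.1% of all probes) and below for 14 (10.6%).

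Over the 84 probes the array median at 18 hours was -0.03, -0.06 and -0.08 on the water arrays of spleen and -0.19, -0.22 and -0.22 on the OPP arrays. All OPP arrays were below all water arrays at that time. At 1 week the water arrays read 0.09, 0.10 and -0.09 and the OPP arrays -0.19, -0.08 and -0.03, which overlap. At 4 weeks they read 0.49, 0.36 and 0.32 with water and 0.37, 0.36 and 0.40 with OPP, also overlapping. Some cell type markers separated by drink at 4 weeks, as given above, and their part in the members' drink differences was not tested.

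At 18 hours the smallest p in spleen was that of one Rpl23 probe, with 0.27, -0.02 and 0.02 on the water arrays and -0.36, -0.27 and -0.37 on the OPP arrays. Its difference was -0.42 (SE 0.1, limma adjusted p = 0.426). One Rpl4 probe differed by -0.47 (SE 0.16, limma adjusted p = 0.429) and Rpl24 by -0.30 (SE 0.1, limma adjusted p = 0.429). At 1 week Rpl22 read 0.02, -0.04 and 0.17 with water and -0.63, -0.32 and -0.37 with OPP. The groups did not overlap and the difference was -0.49 (SE 0.1, limma adjusted p = 0.175). Rpl32 followed with -0.29 (SE 0.094, limma adjusted p = 0.286) and one Rpl38 probe with -0.25 (SE 0.082, limma adjusted p = 0.29).

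At 4 weeks the smallest p-values in spleen were those of Rpl35a, Rpl36 and Rps6. Rpl35a differed by -0.43 (SE 0.1, limma adjusted p = 0.0843) and Rps6 by -0.44 (SE 0.11, limma adjusted p = 0.108). Rpl36 read 0.46, 0.43 and 0.41 with water and -0.36, 0.02 and 0.01 with OPP, a difference of -0.54 (SE 0.14, limma adjusted p = 0.104). All 3 genes were called when only the 6 arrays at 4 weeks entered the fit (limma adjusted p = 0.0237 for Rpl35a, 0.0139 for Rpl36 and 0.0455 for Rps6), where 8 members were called, 3 higher and 5 lower. With all 18 arrays less 1 they were called in 2, 1 and 1 of 18 fits. With array weights 14 were called, 6 higher and 8 lower. The shares of all probes called under these settings are not given here, so the counts are not read as particular to the members.

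Averaged over the 3 times, 2 members were lower with OPP in spleen and 0 higher, where 1.69% of all probes were called, 1.64% lower and 0.0542% higher. Rpl22 fell by 0.28 (SE 0.059, n = 9 and 9, limma adjusted p = 0.0296) and one Rpl23 probe fell by 0.26 (SE 0.056, limma adjusted p = 0.0307). The Rpl23 probe read 0.53, 0.46 and 0.49 with water at 4 weeks and 0.28, 0.00 and 0.12 with OPP. The other Rpl23 probes differed by -0.15 and -0.08. Both calls were lost without the 4 arrays apart in hepatocyte or acinar genes, with differences of -0.26 and -0.28 (limma adjusted p = 0.153 and 0.131) from fewer arrays. When single arrays were left out, Rpl22 was called in 9 and the Rpl23 probe in 7 of 18 fits. Outside the naming pattern, Fau was also called lower in this average, at -0.26 (SE 0.056, limma adjusted p = 0.0307).

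In liver limma called 0 members at 18 hours (1 at an unadjusted p under 0.05), 0 at 1 week (9 unadjusted) and 0 at 4 weeks (16 unadjusted), where 0%, 0.926% and 0.0625% of all probes were called, the last with 0.0208% lower. Averaged over the times it called 0 (6 unadjusted), where 0.346% were called. Of all probes, 7.61%, 10.9% and 7.74% had an unadjusted p under 0.05 at the 3 times, and 10.3% in the average. The members' median differences were -0.04, 0.11 and -0.12, against -0.036, 0.0099 and -0.0022 for all probes. Each moved by over 1.5 times with 1 array left out. The median at 18 hours was -0.0064 without the first water array and -0.076 without the second. At 1 week it was 0.062 without the third water array, and at 4 weeks -0.073 without the second OPP array. The OPP arrays lay above all water arrays for 9 members at 1 week (7.01% of all probes) and below them for 1 (5.63%). At 4 weeks they lay below for 26 members (6.16%) and above for 1 (6.32%).

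The smallest p-values in liver were 0.0398 unadjusted at 18 hours for one Rpl23 probe (-0.26, limma adjusted p = 0.638), and limma adjusted p = 0.269 at 1 week for one Rpl13a probe (0.33, SE 0.12). At 4 weeks they were those of Rps27 (-0.31, SE 0.094, limma adjusted p = 0.309), one Rps9 probe (-0.44, SE 0.14, limma adjusted p = 0.323) and one Rpl38 probe (0.29, SE 0.096, limma adjusted p = 0.37). Rps27 read 0.09, 0.13 and 0.28 with water at 4 weeks and -0.09, -0.34 and 0.01 with OPP, without overlap. The same Rps9 probe had the smallest p in the average over times (-0.25, SE 0.079, limma adjusted p = 0.201).

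**Figure D5:**
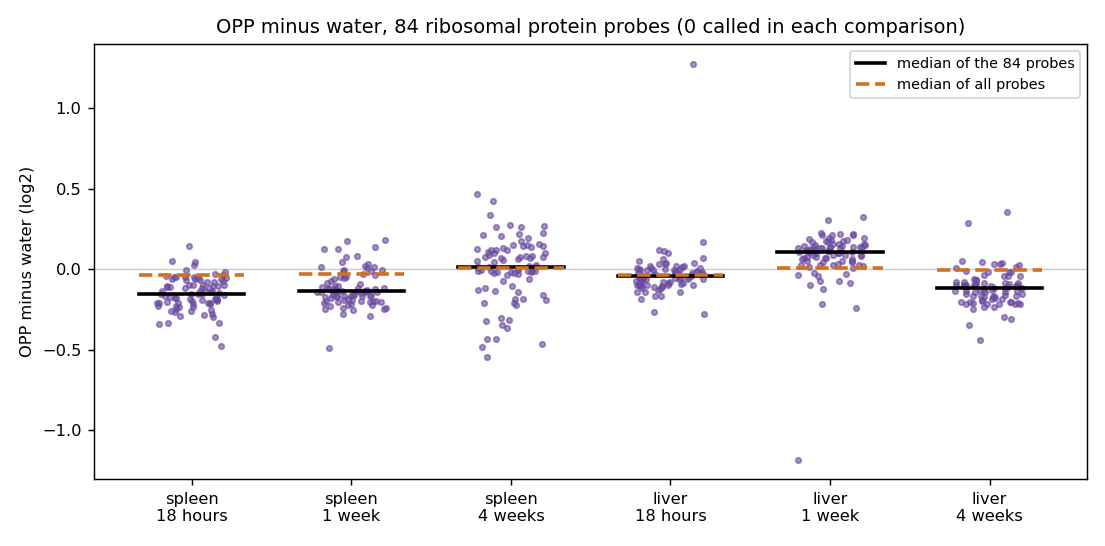
OPP minus water (log2, y axis) for each of the 84 probes at the 3 times in spleen and liver; black lines are the members' medians and dashed lines those of all probes. The members' medians run from -0.15 in spleen at 18 hours to 0.11 in liver at 1 week, and the points at 1.28 and -1.18 in liver are Rpl3l.

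Whether the drink difference varied with time was tested over the 3 times in each tissue. Limma's F test called 0 members in spleen (12 at an unadjusted p under 0.05), where 0.00417% of all probes were called, and 0 in liver (11 unadjusted), where 0.108% were. Its unadjusted p was under 0.05 for 6.94% of all probes in spleen and 9.28% in liver. The smallest p in spleen was that of the Rpl23 probe lower at 18 hours (limma adjusted p = 0.57), whose drink differences were -0.42, -0.09 and 0.26 at the 3 times. Rpl31 and Rps24 followed. In liver they were Rps15 (limma adjusted p = 0.365), one Rpl37 probe and Rpl15.

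Rpl3l had the largest spread of all members in liver, an SD of 1.09 over the 18 arrays against 0.41 for Rpl30, the next. Its log2 ratio was 3.86 on the third water array at 1 week, 2.58 and 1.20 on the third and second OPP arrays at 18 hours and 0.89 on the third OPP array at 4 weeks. On the other 14 arrays it lay between -0.15 and 0.33. On those 4 arrays Acta1, the actin of skeletal muscle, read 8.47, 6.95, 5.59 and 5.10, and Ckm, muscle creatine kinase, 4.24, 2.65, 1.28 and 1.14, in the same order as Rpl3l. No contrast called Rpl3l, and the members' calls without these arrays are given above.

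Probes of 1 gene did not always move together. Of the 68 genes 10 had several probes, 26 in all. In spleen the difference between 2 probes varied most for Rps9 (SD 0.34 over 18 arrays), Rpl38 (SD 0.34) and Rplp0 (SD 0.32), and in liver for Rpl23 (SD 0.28), Rpl21 (SD 0.27) and Rpl27a (SD 0.23). At 4 weeks in spleen, one Rps9 probe read 0.57, 0.67 and 0.76 on the OPP arrays and another 0.36, -0.13 and -0.15. Over all members the median SD was 0.27 in spleen and 0.15 in liver, where it was 0.18 and 0.14 over all probes.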

How the data were processed

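The deposited table holds, per its values, linear ratios, made by the authors, in which a probe is divided by its median over the 18 arrays of a tissue. Row medians lay within 0.0005 of 1. Background correction and scaling are not given in the sources used here, and arrays, not reads, limit the precision. Another deposited table, of signals and detection p-values, has 72 columns that match no sample label and was not used. Symbols came from the platform annotation (19344 probes with 1, 4638 with none). Ratios were taken as log2 with no offset and fitted by limma 3.58.1 in R 4.3.3, a mean per group within each tissue (12 residual degrees of freedom). Scripts were tested on simulated data. Named members were those called without overlap (up to 6 rises and 6 falls by size), the 3 smallest p where none was called, the stalk, Rps6, Rpl22 and the copies with their parents, and the extremes of spread and of probe disagreement; others are named to account for a count and were chosen after their values were seen. The members, lists and tests were chosen with earlier results of these data known. Alternatives were centring, quantile normalisation, fits of only the groups compared, a replicate block, array weights, averaged probes, a robust prior and left-out arrays.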

Additional observations from a re-analysis of the deposited data

Results flagged for a closer look

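The change from 18 hours to 4 weeks differed between spleen and liver for 70 of the 84 ribosomal protein probes, by the test of the difference between tissues. It was named for the 6 probes with the largest differences, all positive for spleen minus liver on the log2 scale: Rpl30 with 1.39, the Rpl13a probes with 1.25 and 1.16, Rpl31 with 1.24, one Rps3 probe with 1.22 and one Rpl27a probe with 1.22. In the tissues taken singly, the Rpl30 probe rose in spleen by 0.56 and fell in liver by 0.83, and the more changed Rpl13a probe rose in spleen by 1.07 and differed by -0.18 in liver. With single arrays left out, 69 to 72 probes differed between the tissues.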

How the results depend on the processing

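Under every alternative run, calls at 4 weeks against 18 hours were more often rises than falls in spleen and more often falls than rises in liver. The shares of all probes called under the alternatives are not given here. A changed count is therefore not read as particular to the members. The fits without 4 arrays of a tissue left 1 array in a group at 18 hours. For spleen 1 week minus 18 hours (7 called) quantile normalisation gave 14, the fit of only the groups compared 4, array weights 16 and the fit without the 4 arrays apart in hepatocyte or acinar genes 0, and leaving out single arrays 4 to 26. For spleen OPP minus water 4 weeks (0 called) the fit of only the groups compared gave 8, array weights 14 and left-out arrays 0 to 6, the last without the first OPP array at 4 weeks. For spleen OPP minus water average (2 called) array weights gave 9, averaged probes 4, the robust prior 6, the fit without those 4 arrays 0 and left-out arrays 0 (without, for example, the first water array at 18 hours) to 12 (without the third water array at 1 week). For liver OPP minus water average array weights gave 1, and for liver 1 week minus 18 hours (28 called) the fit without the 4 arrays with high muscle genes gave 12, with fewer arrays. Members' medians moved for spleen 4 weeks minus 18 hours (0.36 centred, 0.28 quantile normalised), spleen 4 weeks minus 1 week (0.30 and 0.21), the spleen minus liver difference (0.46 quantile normalised) and spleen OPP minus water 1 week (-0.21 to -0.10 over left-out arrays). Over left-out arrays the other drink medians that moved by over 1.5 times ran from -0.0090 to 0.080 for spleen at 4 weeks, and in liver from -0.076 to -0.0064 at 18 hours, 0.062 to 0.156 at 1 week, -0.169 to -0.073 at 4 weeks and -0.036 to -0.00058 for the average. That of liver 4 weeks minus 1 week ran from -0.011 to 0.035. One member, the Rpl37 probe scl48130.4_110-S at spleen 1 week minus 18 hours, turned from -0.29 to 0.023 when the probes of a gene were averaged, since the other Rpl37 probes were higher. The cause of the other shifts was not tested.

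Water and OPP arrays of 1 replicate number within a tissue and time did not deviate together: over 18 pairs of the same number r ran from -0.29 to 0.21, with 1 over 0.1. Fitted with the replicate number as a block, spleen OPP minus water average gave 4 calls in place of 2, and no other count moved by over 1.5 times. Spleen and liver arrays of the same drink, time and number, which may share a mouse, had r from -0.15 to 0.11 over 18 pairs. With these pairs as a replicate block, an alternative chosen after seeing the data, the spleen minus liver difference was called for 70 members, as without it.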
